A study of Schizosaccharomyces pombe with 6 samples.

Results

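The 9 genes described here carry out protein folding and glycoprotein quality control in the endoplasmic reticulum (ER) of the fission yeast Schizosaccharomyces pombe. They are bip1 (SPAC22A12.15c), lsh1 (SPAC1F5.06), scj1 (SPBC1347.05c), cnx1 (SPAC3C7.11c), gls2 (SPAC1002.03c), gpt1 (SPBPJ4664.06), ero11 (SPBC4F6.16c), ero12 (SPCC1450.14c) and ire1 (SPAC167.01). They were picked by name or identifier from the 7008 genes listed in each of 4 RNAseq tables, and all 9 were above 0 in every library. The study sequenced polyadenylated RNA from 6 conditions, with 1 library per condition and no replicates. Heat-stressed wild type cells (moved to 36°C for 15 minutes after growth at 24°C), mas5Δ cells and ssa2Δ cells were each set against the same unstressed wild type library. These cells grew in the rich medium YES, and the unstressed ones at 24°C. The hsf1-overexpressing cells, labelled nmt1-hsf1, were set against wild type cells, both at 24°C in MM Thi-, a minimal medium without thiamine. The comparisons ask how the transcriptome responds to heat, to the loss of the Hsp40 (J protein) gene mas5, to the loss of the cytosolic Hsp70 gene ssa2, and to extra Hsf1, the heat shock transcription factor. Each deletion is represented by a single strain with the gene replaced by ura4+, and the excess of hsf1 in nmt1-hsf1 cells comes from the nmt1 promoter, which is active without thiamine.

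Nascent secretory proteins enter the ER unfolded and are bound there by BiP, an Hsp70 chaperone that J proteins supply with substrates and that nucleotide exchange factors such as the large Hsp70 Lhs1 release. Proteins that receive N-glycans pass in addition through the calnexin cycle, in which glucosidase II trims glucose from the glycan, calnexin holds the monoglucosylated protein, and UDP-glucose glycoprotein glucosyltransferase puts glucose back on proteins that are still misfolded. Disulfide bonds are made by protein disulfide isomerases that Ero1 oxidases recharge. Ire1 senses unfolded proteins in the ER. In fission yeast it acts by cutting mRNAs at the ER membrane and not through a spliced transcription factor, and bip1 mRNA is a special case that is cut, loses its poly(A) tail and is stabilised. Molecules without a tail would not be retained by the oligo-dT selection used for these libraries, and their amount was not measured.

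Levels are FPKM, sequenced fragments normalised for transcript length and library size, as deposited separately for each pair of libraries. Because there is 1 library per condition, no spread, error or test can be given for any difference, and the number of reads behind a value is unknown. A gene is said to have risen or fallen when its FPKM differed more than 2-fold between the libraries of a table, that is by more than 1 on the log2 scale. The deleted genes went with their labels, with mas5 at 36.3 FPKM in mas5Δ cells and 470 FPKM in wild type cells, and ssa2 at 55.0 FPKM in ssa2Δ cells and 2960 FPKM in wild type cells. The hsf1 gene was at 922 FPKM in nmt1-hsf1 cells and 93.4 FPKM in wild type cells. Of the 9 genes, 8 lie in a locus with other listed genes, as do 4705 of all 7008, and their values are less certain because nothing states that reads were counted by strand. The columns of the nmt1-hsf1 table carry no condition names, and their order was taken from the other 3 tables. Values of the shared wild type library exceeded those of the heat stress table by a factor of 1.13 where mas5Δ was the partner and 1.02 where it was ssa2Δ, and levels were therefore compared within tables only.

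Of the 9 genes, bip1, cnx1 and ero11 rose between 2.63-fold and 3.21-fold in heat-stressed cells and between 2.41-fold and 2.69-fold in ssa2Δ cells. In mas5Δ cells bip1 and cnx1 were 1.76-fold and 1.65-fold as high as in wild type, while ero11 was at 1.04-fold. Both lay under the 2-fold mark as deposited and over it, at log2 ratios of 1.10 and 1.01, when the libraries were scaled to equal sums of FPKM. In nmt1-hsf1 cells none of these genes passed 2-fold, and ero12 rose by 2.20-fold as the only one of the 9, joined by gpt1 (log2 ratio 1.17) when the libraries were scaled to equal sums. None of the 9 genes fell more than 2-fold in any comparison. Since the heat-stressed, mas5Δ and ssa2Δ cells were set against 1 wild type library, a deviation of that library would enter all these comparisons together.

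Set against all genes, 3 of 9 ER genes rose more than 2-fold in heat-stressed cells, where 14.1% of 6426 genes with a ratio rose and 10.3% fell. In ssa2Δ cells 3 of 9 rose, beside 10.9% of 6420 genes that rose and 4.14% that fell. In mas5Δ cells 0 of 9 passed 2-fold in either direction, beside 7.25% of 6465 genes up and 5.15% down. In nmt1-hsf1 cells, where 27.1% of 6335 genes rose and 16.7% fell, 1 of 9 rose, a share below that of all genes. Among genes averaging 10 FPKM or more, as all 9 did, 11.9% rose and 8.94% fell in heat-stressed cells. The shares up and down were 3.57% and 4.09% in mas5Δ cells, 8.32% and 2.00% in ssa2Δ cells, and 26.4% and 15.2% in nmt1-hsf1 cells. The median log2 ratio of the 9 genes was 0.34 under heat stress, where that of all genes was 0.01. In mas5Δ cells these medians were 0.08 and 0.04, in ssa2Δ cells 0.08 and 0.05, and in nmt1-hsf1 cells 0.46 and 0.09. Over genes averaging 10 FPKM or more, the range from the 5th to the 95th percentile ran from -1.30 to 1.83 under heat stress, -0.95 to 0.83 in mas5Δ cells, -0.73 to 1.48 in ssa2Δ cells and -1.74 to 2.98 in nmt1-hsf1 cells. Every one of the 9 genes lay inside this range in all 4 comparisons. In ssa2Δ cells the 3 genes that rose thus stood apart from a group that was otherwise near 0.

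**Figure D1:**
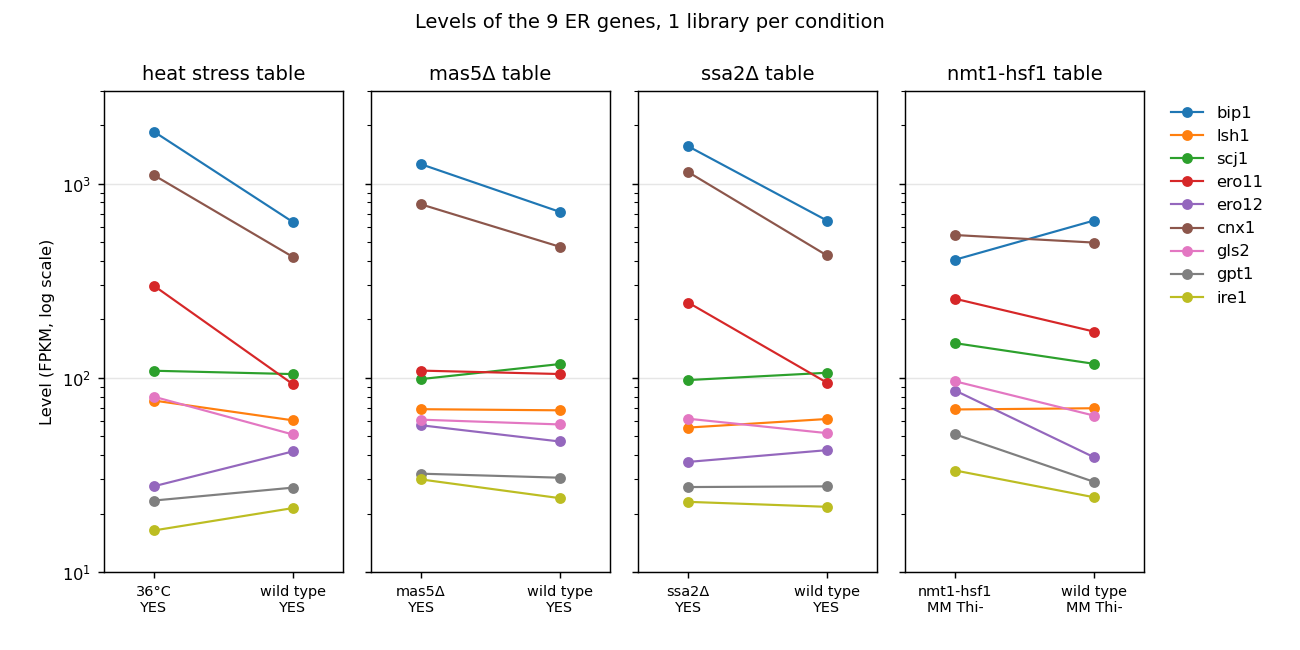
Level of each of the 9 ER genes in FPKM (log scale) in the heat-stressed, mas5Δ, ssa2Δ and nmt1-hsf1 libraries, each left of the wild type library of its table. The bip1, cnx1 and ero11 lines slope down towards wild type in the heat stress and ssa2Δ tables, and bip1 (406 FPKM in nmt1-hsf1 cells and 646 FPKM in wild type cells) slopes the other way in the nmt1-hsf1 table.

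A threshold of 1.5-fold brought in further genes. In heat-stressed cells 4 of 9 were above it and 1 was below it, beside 23.9% and 21.2% of all genes, the additions being gls2 on the higher side and ero12 on the lower side. In mas5Δ cells 2 of 9, bip1 and cnx1, were above 1.5-fold and none was below, beside 14.5% and 14.3% of all genes. In ssa2Δ cells the count stayed at 3 above and 0 below, beside 19.8% and 11.4% of all genes. In nmt1-hsf1 cells 3 of 9 (ero12, gpt1 and, only just, gls2) were above and 1 (bip1) was below, beside 36.3% and 27.6% of all genes. These calls hold for the deposited scale. With equal sums of FPKM, bip1 in nmt1-hsf1 cells lay inside 1.5-fold at a log2 ratio of -0.31. There scj1 (0.71), ero11 (0.92) and ire1 (0.81) were above 1.5-fold too. The same scaling put gls2 under it in heat-stressed cells (0.53) and ire1 over it in mas5Δ cells (0.61). Shares of all genes were not counted on that scale.

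On ASM294v3, the RefSeq assembly used here for positions, bip1 lies at chrI:1182693-1185485, cnx1 at chrI:2086393-2088324 and ero11 at chrII:2720540-2722519, each on the minus strand. The minus strand also holds lsh1 (chrI:276657-281232), ire1 (chrI:1559383-1562818), gls2 (chrI:1799915-1803070), scj1 (chrII:4069163-4070724) and ero12 (chrIII:1758944-1761093), and gpt1 (chrII:707514-712426) lies on the plus strand. All 9 are annotated as protein coding genes. The build behind the tables is not given in the sources used here, and these positions are from the reference alone. The letters before the start of the 3 genes that rose in heat-stressed and ssa2Δ cells were searched for the heat shock element, the inverted repeats of GAA units that heat shock factors bind. The search covered 250 bases before and 50 bases after each annotated start, for GAANNTTC and TTCNNGAA (each its own reverse complement) and, on both strands, for 3 units in a row (GAANNTTCNNGAA and TTCNNGAANNTTC), which contain and overlap the shorter forms. The stretches below run 5′ to 3′ along the gene, from RefSeq, with the matches in capitals, and show how the match differs between the genes. They are the 250 bases before bip1 (chrI:1185486-1185735, minus strand), 30 bases around the match of cnx1 (chrI:2088408-2088437, minus strand), 107 bases far upstream of ero11 (chrII:2722663-2722769, minus strand) and 30 bases around its nearer match (chrII:2722615-2722644, minus strand).
bip1 promoter: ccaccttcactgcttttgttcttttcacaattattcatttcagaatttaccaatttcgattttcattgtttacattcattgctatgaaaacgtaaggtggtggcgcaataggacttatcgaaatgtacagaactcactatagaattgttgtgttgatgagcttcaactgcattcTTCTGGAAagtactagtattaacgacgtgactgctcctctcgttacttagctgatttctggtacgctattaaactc
cnx1 site: tgtttttcgTTCCGGAACCTTCtccattat
ero11 upstream stretch: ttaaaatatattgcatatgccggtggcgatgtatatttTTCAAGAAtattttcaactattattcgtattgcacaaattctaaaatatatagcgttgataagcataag
ero11 near site: cgtgcttaattTTCTAGAAaaacataaaaa
The shorter forms were present in 1015 of 5112 protein coding genes (19.9%) and in 5 of the 9 ER genes. The 3-unit form was present in 24 of 5112 (0.469%) and, among the 9, in cnx1 alone.

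In bip1 the match was TTCNNGAA, from base -76 to base -69 before the start, and ero11 had TTCNNGAA from -212 to -205 and again from -114 to -107. The 3-unit match of cnx1 ran from -104 to -92. Matches in scj1 (from -19 to -12) and in gls2 (from 40 to 47, past the start) stood before or in genes that did not pass 2-fold in any comparison, and lsh1, gpt1, ero12 and ire1 had none. The cytosolic Hsp70 genes ssa1 and ssa2 each had a 3-unit match, from -58 to -46 and from -59 to -47. The first base of the cnx1 and ero11 loci in the tables lies 308 and 143 bases further upstream than the RefSeq start. This holds if the builds share coordinates there, and distances from the true start may differ. Both loci hold other listed genes, so their first base need not belong to cnx1 or ero11. Among the genes without a match, the distance was 4216 bases for ero12, 115 for lsh1, 76 for ire1 and 3 for gpt1. A match in letters is not a measurement of Hsf1 binding, which these tables do not hold.

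**Figure D2:**
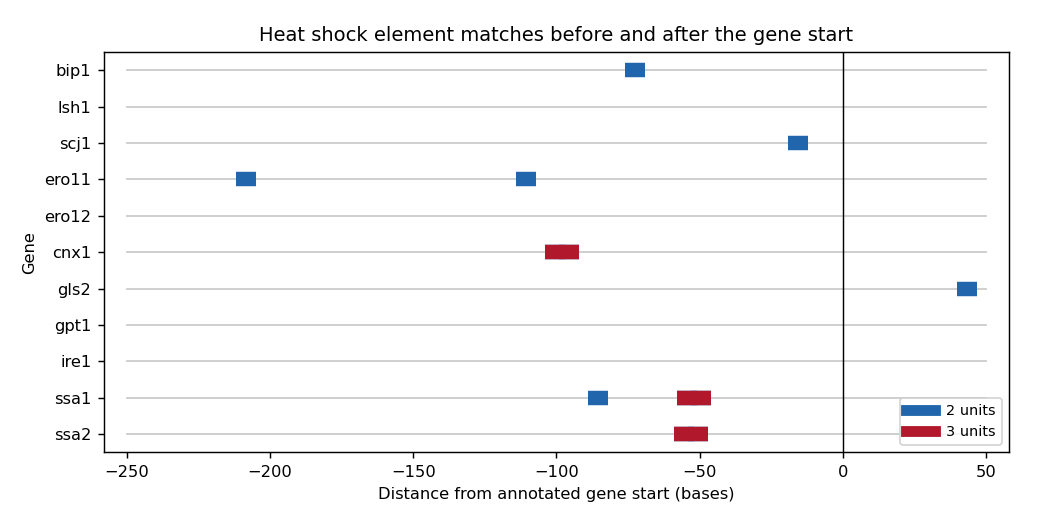
Position of heat shock element letters, in bases from the annotated gene start, from 250 before to 50 after it, for the 9 ER genes and the cytosolic Hsp70 genes ssa1 and ssa2. Blue marks the 2-unit forms and red the 3-unit form, which among the 9 ER genes is seen in cnx1 alone (from -104 to -92).

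The gene with the highest level of the 9 in wild type cells of both media was bip1, which encodes the ER Hsp70 BiP. It was at 1853 FPKM in heat-stressed cells and 636 FPKM in wild type cells, a log2 ratio of 1.54. Its level was 1557 FPKM in ssa2Δ cells and 646 FPKM in wild type cells (log2 ratio 1.27), and 1259 FPKM in mas5Δ cells and 716 FPKM in wild type cells (log2 ratio 0.81). All 3 libraries in YES thus lay above wild type, in the order heat stress, ssa2Δ, mas5Δ by ratio. The nmt1-hsf1 library lay on the other side, with 406 FPKM against 646 FPKM in wild type cells of the same medium, a log2 ratio of -0.67. By level, bip1 ranked 115 of the 7008 listed genes in heat-stressed cells, 143 in ssa2Δ cells and 157 in mas5Δ cells, against 269 in the wild type library of these tables. In nmt1-hsf1 cells it ranked 288, against 282 in wild type cells, so that its place among all genes was nearly unmoved there while its FPKM was lower. Alone among the 9 genes, bip1 shares its locus in the tables with no other listed gene.

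The partners of BiP were not among the genes that rose. The large Hsp70 encoded by lsh1, whose budding yeast counterpart Lhs1 exchanges nucleotide on BiP, was at 76.4 FPKM in heat-stressed cells and 60.4 FPKM in wild type cells. It was at 68.9 FPKM in mas5Δ cells and 68.0 FPKM in wild type cells, and at 55.4 FPKM in ssa2Δ cells and 61.4 FPKM in wild type cells. In nmt1-hsf1 cells it had 68.7 FPKM, against 69.7 FPKM in wild type cells. Its log2 ratios ran from -0.15 to 0.34, all inside 1.5-fold. The opposite-strand gene hem14 covers 1726 bases of lsh1 and was at or below 8.11 FPKM in every library. It was at 0 FPKM in heat-stressed cells, against 7.22 FPKM in wild type cells. In ssa2Δ cells it had 0.00288 FPKM, against 7.34 FPKM in wild type cells. In nmt1-hsf1 cells it had 0 FPKM, against 2.53 FPKM in wild type cells. Only in the mas5Δ table were both values alike, 7.85 and 8.11 FPKM. The part of hem14 in the lsh1 values was not tested.

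The J protein gene scj1 also stayed inside 1.5-fold as deposited, but not in nmt1-hsf1 cells with equal sums of FPKM (log2 ratio 0.71). It had 109 FPKM in heat-stressed cells and 105 FPKM in wild type cells, 98.5 FPKM in mas5Δ cells and 118 FPKM in wild type cells, and 97.4 FPKM in ssa2Δ cells and 106 FPKM in wild type cells. In nmt1-hsf1 cells it had 151 FPKM, against 118 FPKM in wild type cells, which was its largest log2 ratio (0.35). In heat-stressed cells BiP mRNA therefore stood at a higher ratio to the mRNAs of both partners than in wild type cells.

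Among the genes of the calnexin cycle, cnx1, which encodes calnexin, the lectin chaperone that holds monoglucosylated proteins, had the largest ratios in the 3 comparisons in YES. It was at 1105 FPKM in heat-stressed cells and 420 FPKM in wild type cells (log2 ratio 1.40), and at 1147 FPKM in ssa2Δ cells and 427 FPKM in wild type cells (log2 ratio 1.43). In mas5Δ cells it had 782 FPKM, against 473 FPKM in wild type cells (log2 ratio 0.73). The ratio of ssa2Δ cells was thus at the size of the heat stress ratio, and that of mas5Δ cells was smaller. In nmt1-hsf1 cells cnx1 had 544 FPKM, against 497 FPKM in wild type cells, a log2 ratio of 0.13. It was the highest of the 9 genes in that library, in which bip1 was lower than in wild type.

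The enzymes that add and remove the glucose differed from cnx1 and from each other. The glucosidase II alpha subunit gene gls2 had 79.9 FPKM in heat-stressed cells and 51.1 FPKM in wild type cells (1.56-fold), while gpt1, which encodes the glucosyltransferase that senses misfolding, had 23.3 FPKM in heat-stressed cells and 27.2 FPKM in wild type cells. The level of gls2 was accordingly 3.43 times that of gpt1 in heat-stressed cells and 1.88 times that of gpt1 in wild type cells. In mas5Δ cells gls2 had 60.9 FPKM and gpt1 32.1 FPKM, against 57.5 and 30.6 FPKM in wild type cells. In ssa2Δ cells gls2 had 61.6 FPKM and gpt1 27.4 FPKM, against 51.9 and 27.6 FPKM in wild type cells, so neither mutant moved either gene past 1.5-fold. In nmt1-hsf1 cells gls2 had 95.9 FPKM and gpt1 51.1 FPKM, against 63.9 and 29.1 FPKM in wild type cells, and gpt1 with 1.76-fold was the second highest ratio of the 9 genes there.

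**Figure D3:**
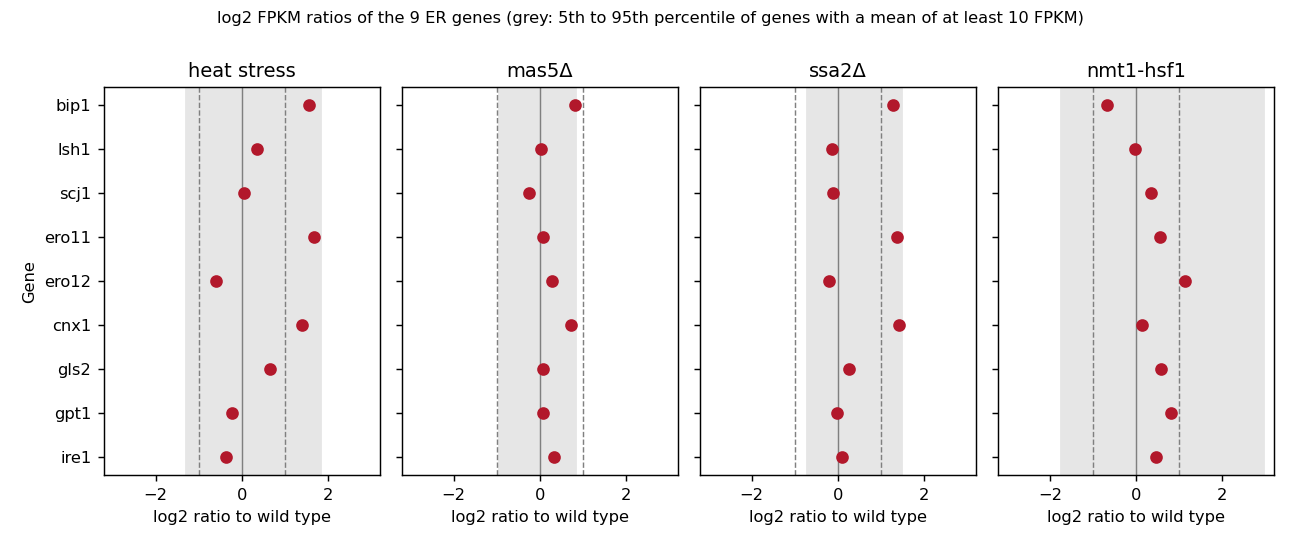
Log2 ratio of FPKM to wild type for each of the 9 ER genes (rows) in the 4 comparisons (panels), with dashed lines at 2-fold and grey from the 5th to the 95th percentile of genes averaging 10 FPKM or more. All 9 points lie inside the grey range in every panel, and bip1, cnx1 and ero11 lie right of the dashed line for heat stress and ssa2Δ.

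The paralogous oxidase genes ero11 and ero12, whose products pass oxidising equivalents to protein disulfide isomerases, behaved differently. In heat-stressed cells ero11 was at 298 FPKM, against 92.9 FPKM in wild type cells, and its log2 ratio of 1.68 was the largest among the 9 genes in any comparison. In the same libraries ero12 was at 27.6 FPKM in heat-stressed cells and 41.8 FPKM in wild type cells, a log2 ratio of -0.60 and the lowest of the 9 genes. The paralogs thus stood further apart in heat-stressed cells: the level of ero11 was 10.8 times that of ero12 in heat-stressed cells and 2.23 times that of ero12 in wild type cells.

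In ssa2Δ cells ero11 had 244 FPKM, against 94.4 FPKM in wild type cells (log2 ratio 1.37), and ero12 had 36.9 FPKM, against 42.4 FPKM in wild type cells. The ratio of ero11 to ero12 was 6.61 in ssa2Δ cells and 2.23 in wild type cells. In mas5Δ cells ero11 had 109 FPKM, against 105 FPKM in wild type cells, and ero12 had 57.0 FPKM, against 47.0 FPKM in wild type cells, so ero11 did not accompany bip1 and cnx1 in this mutant. The level of ero11 relative to bip1 was 0.0865 in mas5Δ cells and 0.146 in wild type cells, whereas it was 0.161 in heat-stressed cells and 0.157 in ssa2Δ cells. In nmt1-hsf1 cells ero12 had the larger ratio of the pair, with ero12 at 85.9 FPKM against 39.0 FPKM in wild type cells (log2 ratio 1.14), and ero11 at 255 FPKM against 173 FPKM in wild type cells (log2 ratio 0.56). Here the level of ero11 was 2.97 times that of ero12 in nmt1-hsf1 cells and 4.44 times in wild type cells.

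The locus of ero11 holds other transcripts. The small nucleolar RNA gene snoU18 lies inside the ero11 gene on the same strand, and the deposited values do not state how shared reads were divided. snoU18 was at 2479 FPKM in ssa2Δ cells and 926 FPKM in wild type cells, and at 6371 FPKM in nmt1-hsf1 cells and 1113 FPKM in wild type cells. In heat-stressed cells it had 830 FPKM, against 912 FPKM in wild type cells, and in mas5Δ cells 936 FPKM, against 1027 FPKM in wild type cells. The rise of ero11 in ssa2Δ cells and its higher value in nmt1-hsf1 cells were therefore seen beside a higher value of snoU18, and the rise in heat-stressed cells was not. The non-coding gene SPNCRNA.1545, which overlaps the far end of ero11 by 83 bases on the other strand, was at 108 FPKM in nmt1-hsf1 cells and 8.67 FPKM in wild type cells. The part of these neighbours in the ero11 values was not tested.

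The sensor gene ire1 had the lowest level of the 9 genes in every library. It was at 16.4 FPKM in heat-stressed cells and 21.3 FPKM in wild type cells, at 29.97 FPKM in mas5Δ cells and 24.0 FPKM in wild type cells, and at 23.0 FPKM in ssa2Δ cells and 21.7 FPKM in wild type cells. In nmt1-hsf1 cells it had 33.3 FPKM, against 24.3 FPKM in wild type cells. Its log2 ratios as deposited, from -0.38 for heat stress to 0.46 for nmt1-hsf1, stayed inside 1.5-fold. On that scale the mRNA of the sensor did not pass either threshold in a library where bip1 did. With equal sums of FPKM, ire1 was past 1.5-fold in mas5Δ cells (log2 ratio 0.61) and in nmt1-hsf1 cells (0.81). FPKM report the amount of ire1 mRNA and not whether Ire1 cut any RNA. The opposite-strand gene SPNCRNA.555, which covers 2087 bases of ire1, had the same sign of ratio as ire1 in all 4 comparisons and levels at or below 12.7 FPKM, and its part in the ire1 value was not tested.

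By level, the 9 genes kept much of their order. In wild type cells of the heat stress table they ran bip1, cnx1, scj1, ero11, lsh1, gls2, ero12, gpt1 and ire1, over a span from 636 to 21.3 FPKM. In heat-stressed cells ero11 stood above scj1 and gls2 (79.9 FPKM) just above lsh1 (76.4 FPKM), and the span was 1853 to 16.4 FPKM. In nmt1-hsf1 cells cnx1 stood above bip1, at 1.34 times its level, where wild type cells of the same medium had 0.770 times. Without replicates, neighbours in these orders that lie close together, such as scj1 and ero11 in wild type cells of YES, cannot be told apart.

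Hsp70 genes of other compartments gave a comparison for bip1. The cytosolic Hsp70 gene ssa1 had by far the largest log2 ratios, 6.53 under heat stress, 3.93 in mas5Δ cells, 4.95 in ssa2Δ cells and 3.31 in nmt1-hsf1 cells. The heat stress log2 ratio of bip1 (1.54) lay between those of ssa2 (1.73), the major cytosolic Hsp70 gene, and of ssc1 (1.19), which encodes the mitochondrial Hsp70, and close to that of the Hsp110 gene pss1 (1.42). In ssa2Δ cells ssa1 and bip1 rose, pss1 lay just short of 2-fold at 0.98, and ssc1 was at 0.62. The ribosome-associated gene sks2 had negative log2 ratios, -1.01 under heat stress, -0.64 in mas5Δ cells and -0.61 in ssa2Δ cells, in the tables set in YES. In nmt1-hsf1 cells ssa1 rose and ssa2 was at 0.83, while bip1 (-0.67), ssc1 (-0.73), pss1 (-1.12) and sks2 (-1.36) had negative log2 ratios. As a share of the summed FPKM of the 7 genes, bip1 made up 8.57% in heat-stressed cells and 8.86% in wild type cells, and 4.79% in nmt1-hsf1 cells and 10.6% in wild type cells. The share was 9.05% in mas5Δ cells and, with ssa2 itself deleted, 20.9% in ssa2Δ cells, against 8.86% in wild type cells.

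**Figure D4:**
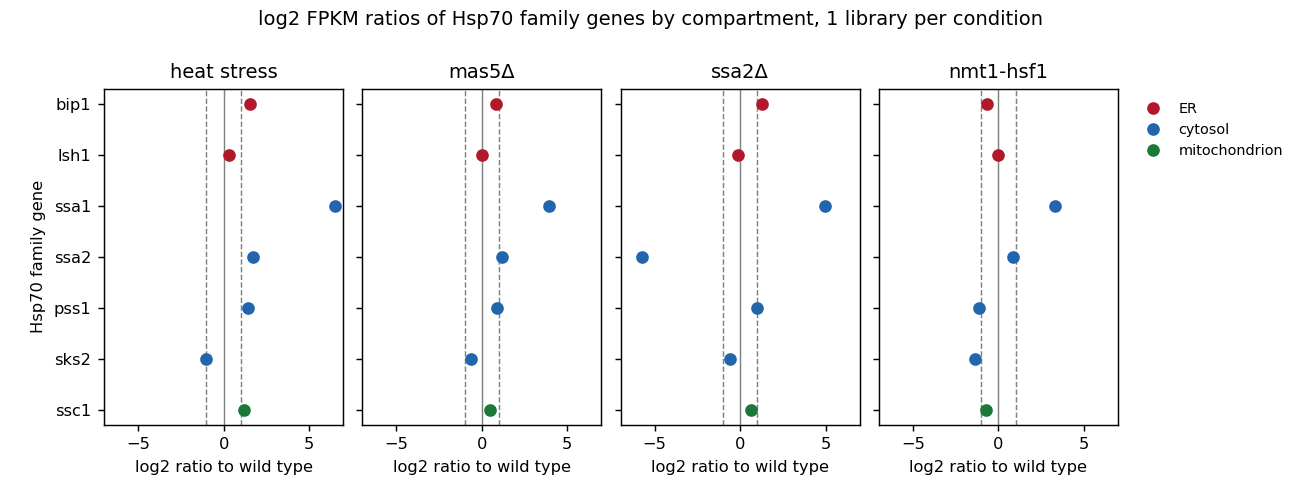
Log2 ratio of FPKM to wild type for the 7 Hsp70 family genes, coloured by compartment, with dashed lines at 2-fold and 1 library per condition. The ER gene bip1 (1.54 for heat stress) lies with ssa2, pss1 and ssc1 for heat stress, and right of all of them for ssa2Δ, where the deleted gene ssa2 is at -5.75.

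J protein genes outside the ER were set beside scj1. The cytosolic gene psi1 had log2 ratios of 4.96 under heat stress, 2.67 in mas5Δ cells and 3.03 in ssa2Δ cells, and the mitochondrial gene mdj1 had 1.57, -0.18 and 1.39. The log2 ratios of xdj1 (-0.43, -0.19 and -0.12) did not pass 2-fold in these comparisons, and mas5 was at 0.96 under heat stress and 1.17 in ssa2Δ cells. In nmt1-hsf1 cells xdj1 was at 1.35, psi1 at 1.00, mdj1 at 0.99 and mas5 at -0.19. Of the other genes listed as possible co-chaperones of BiP, the translocon-bound J protein gene sec63 stayed between -0.13 and 0.25 in all 4 comparisons. Of the 4 genes listed (sec63, erj5, sil1 and SPBC17A3.05c), 0 passed 2-fold in the 3 comparisons in YES. The study assigns erj5 and SPBC17A3.05c to the nucleus and cytoplasm, so their place in this list is uncertain. In nmt1-hsf1 cells the J protein gene erj5 rose to 241 FPKM, against 71.4 FPKM in wild type cells. None of the 4 thus rose in the libraries in which bip1 did.

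Beyond the 9 genes, 67 other genes listed for the ER and its secretory pathway were counted in 6 lists. In heat-stressed cells 8 of 67 rose and 0 fell, in mas5Δ cells 0 passed 2-fold, in ssa2Δ cells 2 rose and 0 fell, and in nmt1-hsf1 cells 7 of 66 with a ratio rose and 5 fell. These counts use the values as deposited, and each is a smaller share than that of all genes in the same direction. Among genes averaging 10 FPKM or more, however, 11.9% rose in heat-stressed cells, which is near the share of the 67 genes. In heat-stressed cells 7 of the 8 belonged to ER-associated degradation, the removal of misfolded proteins to the proteasome, in which 7 of 14 genes rose, beside 14.1% of all genes, and the median log2 ratio was 0.88. The list is singled out here after its values were seen. The 7 genes were ubc6 (1.97), cue1 (1.71), cdc48 (1.59), ubx2 (1.53), ufd1 (1.25), npl4 (1.09) and der1 (1.01). Of these, npl4 and der1 were past 2-fold by less than the 0.11 by which equal sums of FPKM lower the heat stress ratios. They would not stay past it on that scale. The ATPase gene cdc48 and its cofactor genes ufd1 and npl4 also serve outside the ER, and cue1 shares its locus with mdj1.

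The ubiquitin conjugating enzyme gene ubc6 was at 116 FPKM in heat-stressed cells and 29.5 FPKM in wild type cells, and at 93.1 FPKM in ssa2Δ cells and 29.99 FPKM in wild type cells. With cue1, at 118 FPKM in ssa2Δ cells and 56.1 FPKM in wild type cells, it made up the 2 of 14 genes of this list that rose in ssa2Δ cells, a share near the 10.9% of all genes. In mas5Δ cells 0 of 14 rose and the median was 0.22. In nmt1-hsf1 cells 2 of 14 rose, a smaller share than the 27.1% of all genes, among them the alpha mannosidase gene mnl1 with 86.7 FPKM against 21.1 FPKM in wild type cells.

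The lists closest by function to the ero1 genes and to cnx1 are those of the isomerases and of the glycan enzymes. Of 5 protein disulfide isomerase genes, the partners of Ero1 proteins, 1 rose in heat-stressed cells, beside 14.1% of all genes. It was mpd1, with 54.0 FPKM against 18.3 FPKM in wild type cells, in a locus with 6 other listed genes. The main isomerase gene pdi1 was at a log2 ratio of 0.11 under heat stress, 0.19 in mas5Δ cells, -0.15 in ssa2Δ cells and -0.55 in nmt1-hsf1 cells. In nmt1-hsf1 cells 2 of 5 rose, beside 27.1% of all genes: pdi5, which is alone in its locus, had 122 FPKM, against 32.4 FPKM in wild type cells, and mpd1 had 67.1 FPKM, against 24.7 FPKM in wild type cells. Of 11 glucosidase, mannosidase and oligosaccharyltransferase genes, which attach and trim the glycan that calnexin reads, 0 passed 2-fold in the 3 comparisons in YES. In nmt1-hsf1 cells 2 of 10 fell, beside 16.7% of all genes, and the median was -0.58 as deposited. Both genes were past 2-fold by less than the 0.36 by which equal sums of FPKM raise the ratios there. They would not stay past it on that scale.

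Lipid-linked oligosaccharide synthesis, which builds the glycan, had 0 of 18 genes past 2-fold in YES. In nmt1-hsf1 cells 2 were up and 2 down, beside 27.1% and 16.7% of all genes, and alg10 rose to 83.0 FPKM, against 24.2 FPKM in wild type cells. Of 15 genes of ER translocation and signal peptidase, 0 passed 2-fold in YES, and 1 fell in nmt1-hsf1 cells, the signal recognition particle gene sec65 with 21.7 FPKM against 124 FPKM in wild type cells. Entry into the ER and glycan synthesis thus contributed none of the genes that rose with bip1 in heat-stressed or ssa2Δ cells.

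**Figure D5:**
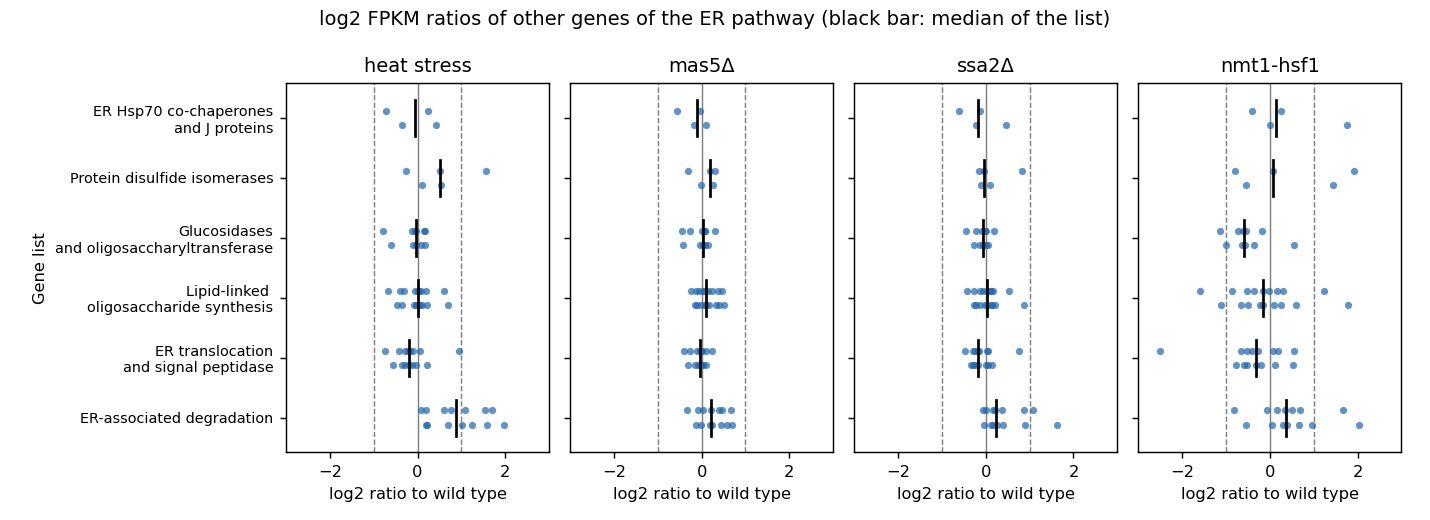
Log2 ratio of FPKM to wild type for the other genes of the ER pathway, 1 point per gene, in 6 lists (rows) and 4 comparisons (panels), with a black bar at the median of each list and dashed lines at 2-fold. The list of ER-associated degradation lies furthest right for heat stress, with a median of 0.88, and the glucosidase and oligosaccharyltransferase list has a median of -0.58 for nmt1-hsf1, both as deposited.

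The genes whose 4 log2 ratios were most like those of bip1 were sought among 4446 protein coding genes that averaged 10 FPKM or more in every table, by Euclidean distance over the 4 comparisons. The nearest, dpe1 (SPAC3A11.10c), which encodes a dipeptidyl peptidase, lay at a distance of 0.0955 with log2 ratios of 1.57 under heat stress, 0.86 in mas5Δ cells, 1.19 in ssa2Δ cells and -0.69 in nmt1-hsf1 cells. It was followed by the glycolytic gene pgk1 at 0.366, the chitin synthase regulatory factor gene cfh2 at 0.452, fub1 at 0.480 and SPAPB1A10.08, a gene of uncharacterised product, at 0.526. Of these nearest genes only pgk1 is alone in its locus, and the values of the others are less certain. The nearest of the other ER genes was cnx1, at rank 38 with a distance of 0.832, and ero11 came at rank 287. The remaining genes lay between rank 958 (gls2) and rank 3385 (ero12), so likeness in pattern to bip1 did not run through the 9 genes. Of the 4 ratios, 3 share a wild type library, and the distance rests on 4 points per gene.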

How the data were processed

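The authors prepared libraries from polyadenylated RNA, checked the reads with FastQC, mapped them with TopHat and ran Cuffdiff. Versions, annotation and genome build are not given in the sources used here. They deposited 4 tables, each with the FPKM of a gene in 2 libraries, and these FPKM were used as deposited. The authors' own comparison columns (log2 ratio, test statistic, p-value, q-value and significance mark) were not used. In 3 tables the order of the libraries could be checked, and the nmt1-hsf1 table was assumed to follow it. With this order hsf1 itself was higher in nmt1-hsf1 cells, at 922 FPKM against 93.4 FPKM in wild type cells.

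Log2 ratios used no pseudocount and needed a value above 0 in each library of the pair, and genes past 2-fold and 1.5-fold were counted. With 1 library per condition no test was run. FPKM are not whole multiples of a read, so depth and counting error are unknown, and library sums ran from 764347 to 1081090 FPKM. The 9 genes, the pathway lists and the searches were chosen with earlier results of these data known. Genes named from the lists were those past 2-fold with at least 10 FPKM in 1 of both libraries, at most 4 per comparison by size of ratio. The 7 degradation genes that rose, pdi1, sec63, erj5, the other genes listed with them and mpd1 in nmt1-hsf1 cells were named after their values were seen, and Hsp70 and J protein genes of other compartments and the 5 genes nearest to bip1 were named by rule. Of the symbols in the lists, 2 had no match and 8 matches were dropped because product or synonym named another gene. Identifiers matched RefSeq ASM294v3 for 6843 of 7008 genes. The alternatives were pseudocounts of 0.1 and 1 FPKM, centring on the median of genes averaging 1 FPKM or more, equal sums, equal upper quartiles, 1.5-fold and 3-fold thresholds, a mean of 10 FPKM or more, and genes alone in their locus. The steps were tested on simulated data. Python 3.11.15, numpy 2.4.6, pandas 2.3.3 and matplotlib 3.10.9 were used.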

Additional observations from a re-analysis of the deposited data

How the results depend on the processing

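No paired analysis was possible because each condition has 1 library, and for the same reason no library could be left out. Scaling the libraries to equal sums of FPKM shifted the median log2 ratio of all genes by -0.11 for heat stress, 0.29 for mas5Δ and 0.36 for nmt1-hsf1, and equal upper quartiles shifted it by -0.14 for nmt1-hsf1. With equal sums, 2 of the 9 ER genes rose in mas5Δ cells (bip1 at 1.10 and cnx1 at 1.01 on the log2 scale) and 2 in nmt1-hsf1 cells (ero12 and, at 1.17, gpt1). At 1.5-fold on the deposited scale, 1 was lower in heat-stressed cells, 2 were higher in mas5Δ cells, and 3 were higher and 1 lower in nmt1-hsf1 cells. At 3-fold, 1 rose in heat-stressed cells (ero11), 0 in ssa2Δ cells and 0 in nmt1-hsf1 cells. Among genes alone in their locus, which leaves bip1 of the 9, 1 rose in heat-stressed cells, 1 in ssa2Δ cells and 0 in nmt1-hsf1 cells. The centring and equal upper quartiles left every count as it was. The pseudocounts did too, but they are small beside the levels of these genes and could hardly move a count. The minimum of 10 FPKM removed none of the 9 genes, so it is no check. Over 180 recomputed log2 ratios of the 9 genes, those with pseudocounts included, 177 stayed on their side of 2-fold. Of the 180, 6 changed sign, all with a deposited ratio of at most 0.26 in size. Centring cannot change the distance between genes, so it is no check of the 5 genes nearest to bip1. As the depth is unknown, no counting error can be given for any of the genes.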
